A study of Mus musculus with 8 samples.

Results

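The epidermis carries serine proteases of the kallikrein family, the membrane-bound proteases matriptase and prostasin, lysosomal cathepsins, and a large set of inhibitors that hold them in check. Kallikreins are secreted in the upper layers and cut the adhesion proteins that join corneocytes, so that cells can be shed from the surface. Clade B serpins are inhibitors that stay largely inside the cell and trap mostly serine proteases, whereas stefins and cystatins block cysteine cathepsins. The genes described here were chosen by symbol: kallikreins, clade B serpins, stefin A genes, Kazal inhibitors (Spink genes) and cathepsins, together with Cst3, Cst6, Csta, Cstb, Prss8, St14, Slpi, Plau, Plat, Plaur and Spint1. The rule found 84 of the 22690 probe sets in the deposited table, 81 of them with 1 gene name, and these stand for 66 of 13201 genes.

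Affymetrix arrays were hybridized with RNA from epidermal sheets, separated from the dermis with dispase, of mice depilated 3 days before. There were 3 arrays of Tcl1-/- mice, 3 of K14-TCL1 mice and 2 of WT mice (C57bl/6), 1 animal per array according to the methods, which give 3 animals for every genotype. In the K14-TCL1 mice the keratin 14 promoter drives the human TCL1A gene in basal keratinocytes (KCs), and these mice also carry the Tcl1 deletion. Tcl1-/- and K14-TCL1 mice therefore differ by the transgene, and both differ from WT by the deletion. Other DNA inherited with the deletion or with the transgene cannot be told apart from it. The study describes the mice as adult, and their exact ages and the number of litters are not given in the sources used here, so that a litter or preparation that goes with a genotype cannot be told apart from it. All 6 KC markers checked (Krt5, Krt14, Krt1, Krt10, Lor and Ivl) passed the filter on low signals. Values are RMA intensities on the linear scale, and differences are given on the log2 scale, ± SE, from 1 limma fit over all 8 arrays, adjusted over all tested genes (Benjamini-Hochberg).

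Of the 66 genes, 39 were tested because their highest genotype mean reached 5 on the log2 scale. The 27 that did not were 12 kallikreins, 9 cathepsins, 4 clade B serpins, Spink1 and Plau, with highest genotype means between 2.74 (Ctsj) and 4.58 (Plau). The untested kallikreins were Klk1, Klk4 and members of the mouse Klk1b subfamily, and the untested cathepsins included Ctsg, a neutrophil protease, and Cts3, Cts6, Cts7, Cts8, Ctsj, Ctsm, Ctsq and Ctsr. Of the tested genes, Serpinb9 was the 1 whose mean fell below 5 in a genotype (4.92 in WT), and it was called in no comparison. No Csta, Klk5 or Klk14 probe set with that name was among those found in this table, which holds fewer probe sets than the array type that the methods name, so these genes were not analysed here.

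In Tcl1-/- epidermis, inhibitors showed the largest falls. Stfa3, a stefin A gene, was 0.397 times its WT level, the serpin gene Serpinb6c 0.550 times, and Serpinb1a 0.604 times. Klk6 fell to 0.625 times and Slpi to 0.631 times the WT level, and 4 of 6 tested kallikreins fell while none rose. Ctse, with 1.64 times the WT level, had the largest rise among the called genes. Against WT, 9 of the 39 genes rose and 14 fell (adjusted p under 0.05), which is 59% of those tested. Over all 9731 tested genes 26.6% were called, 14.4% as higher and 12.2% as lower in Tcl1-/-. The median difference was -0.02 over the tested proteases and inhibitors and 0.01 over all genes. At a difference of at least 0.5 as well, 7 of the 39 were called (Stfa3, Serpinb6c, Serpinb1a, Serpinb11, Klk6, Slpi and Ctse), against 3.84% of all genes.

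In K14-TCL1 epidermis, 9 of the 39 genes rose and 8 fell against WT, 43.6% of those tested. Over all genes 21.5% were called, 11.7% as higher and 9.84% as lower. Serpinb6c (1.65 times WT) and Ctse (1.42 times) were the called genes past 0.5, a size that 2.59% of all genes reached with a call. The median difference was 0.04, against 0.01 over all genes. Klk10 and Serpinb1a, both at 1.32 times WT, rose as well, while Ctsz (0.749 times) and Klk11 (0.792 times) fell.

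Set against K14-TCL1, Tcl1-/- epidermis had 6 genes higher and 11 lower, again 43.6% of the 39. The same comparison called 26.6% of all genes, 13.9% as higher and 12.7% as lower. Past 0.5 there were 5 genes, Serpinb6c, Serpinb1a, Stfa3, Serpinb11 and Klk10, all lower in Tcl1-/-, against 1.88% of all genes called at this size. A test over the 3 genotypes at once called 27 of the 39 genes and 38.5% of all genes. The comparisons with WT use the same 2 WT arrays, so they are given side by side and not set against each other.

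**Figure D1:**
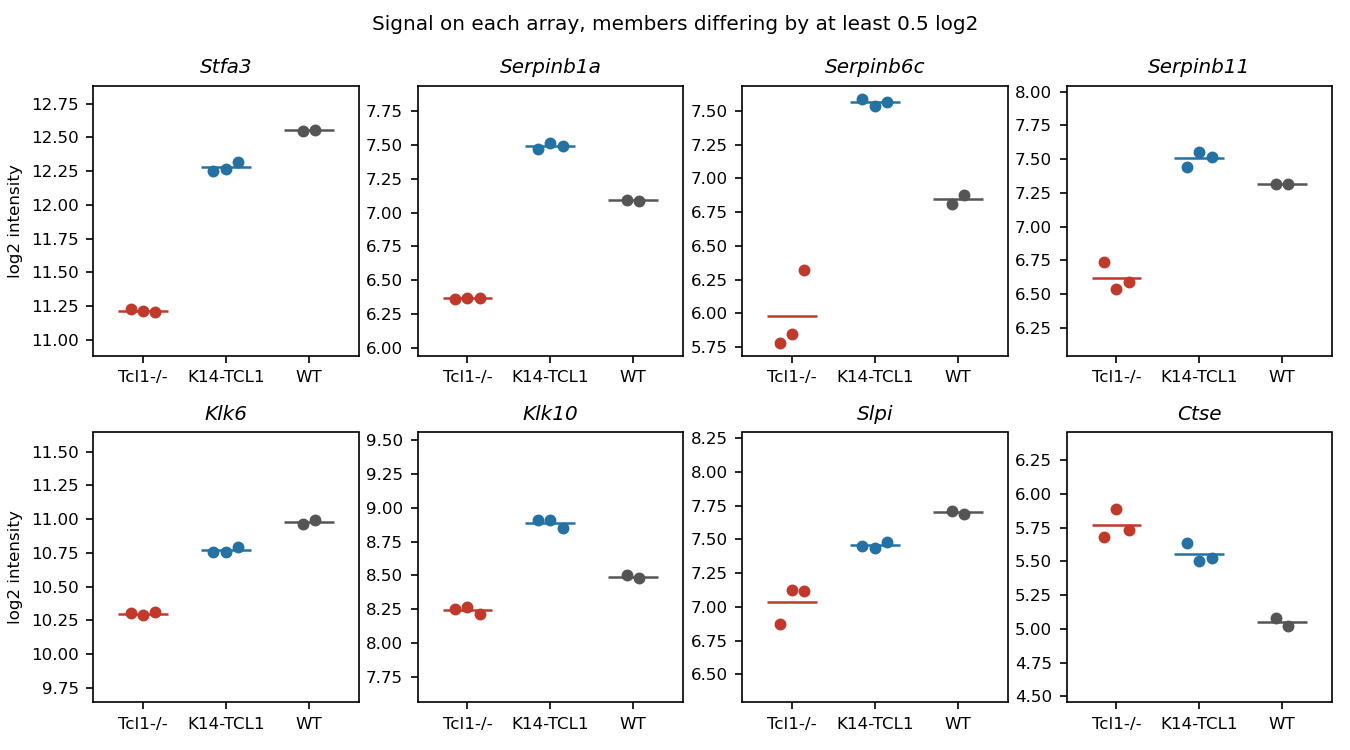
Log2 intensity of the 8 genes called with a difference of at least 0.5 in some comparison, each point 1 array and each line the mean of a genotype, with every vertical axis spanning 2 log2 units. Serpinb1a, Serpinb6c, Serpinb11 and Klk10 have the Tcl1-/- arrays below and the K14-TCL1 arrays above the WT arrays, and Ctse has both genotypes above WT. For Serpinb11 the K14-TCL1 difference from WT was not called.

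**Figure D2:**
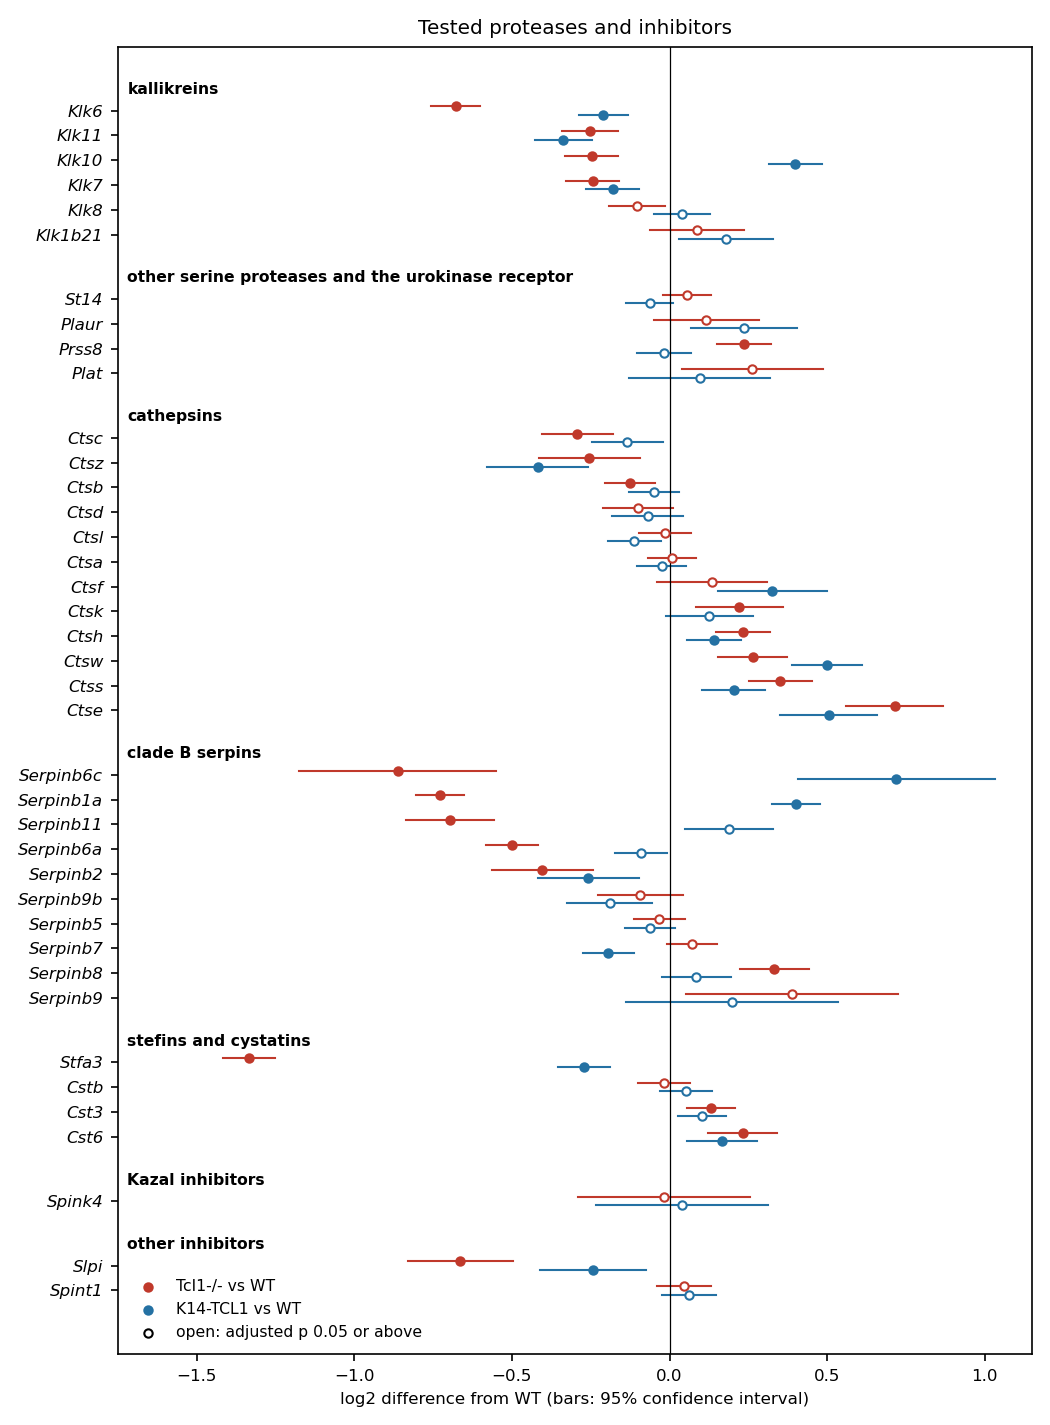
Log2 difference from WT of all 39 tested genes, by class, with 95% confidence intervals, in Tcl1-/- (red) and K14-TCL1 epidermis (blue), filled where the adjusted p is under 0.05. Stfa3 lies furthest to the left at -1.33 in Tcl1-/-, and among the filled points Ctse in Tcl1-/- and Serpinb6c in K14-TCL1 lie furthest to the right, both at 0.72.

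No tested kallikrein rose in Tcl1-/- epidermis. Of the 6 tested, 4 fell and none rose in Tcl1-/- against WT, and 3 fell and 1 rose in K14-TCL1 against WT. The same comparisons called 26.6% and 21.5% of all genes. Median differences of the kallikreins were -0.25 in Tcl1-/- and -0.07 in K14-TCL1, against 0.01 over all genes in both. Among the KC markers, RNA of Ivl (involucrin, a cornified envelope protein of the upper layers) fell beside them in Tcl1-/- (-0.43, adjusted p = 0.000156) and in K14-TCL1 (-0.59, adjusted p = 4.61e-05). For the protein, the study's Western blots of epidermal sheets showed more IVL than WT in Tcl1-/- and almost none in K14-TCL1. Lor (loricrin) rose in Tcl1-/- (0.11, adjusted p = 0.0455), and Krt5, of the basal layer, fell in K14-TCL1 (-0.13, adjusted p = 0.0207). The 6 KC markers summed to 83877 to 84411 in Tcl1-/-, 79685 to 80336 in K14-TCL1 and 84954 to 85713 in WT, and the part of KC layers in the kallikrein values was not tested. Klk6, a trypsin-like kallikrein, had intensities of 1264, 1251 and 1269 in Tcl1-/-, 1732, 1734 and 1772 in K14-TCL1, and 1997 and 2041 in WT. The 3 genotypes did not overlap, with K14-TCL1 in between. The difference from WT was -0.68 ± 0.03 in Tcl1-/- (adjusted p = 4.94e-06) and -0.21 ± 0.03 in K14-TCL1 (adjusted p = 0.00402), and Tcl1-/- lay 0.47 below K14-TCL1 (log2 difference -0.47 ± 0.03, adjusted p = 3.2e-05).

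Klk7, the chymotrypsin-like kallikrein that cuts corneodesmosin, read 10764, 10934 and 11095 in Tcl1-/-, 11413, 11338 and 11514 in K14-TCL1, and 13233 and 12649 in WT. Both genotypes lay below both WT arrays, by -0.24 ± 0.04 in Tcl1-/- (adjusted p = 0.00199) and by -0.18 ± 0.04 in K14-TCL1 (adjusted p = 0.0107). The K14-TCL1 call was lost without WT replicate 1 (adjusted p = 0.0944). Between Tcl1-/- and K14-TCL1 the difference was -0.06 with a 95% interval of -0.14 to 0.01.

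Klk11, another trypsin-like kallikrein of the upper epidermis, read 643, 643 and 659.7 in Tcl1-/-, 628, 591 and 617 in K14-TCL1, and 770.4 and 774 in WT. It fell in both, by -0.25 ± 0.04 in Tcl1-/- (adjusted p = 0.00229) and by -0.34 ± 0.04 in K14-TCL1 (adjusted p = 0.000724). Unlike these 3 genes, Klk10 moved in opposite directions. It read 305, 307 and 296 in Tcl1-/-, 479.8, 479.6 and 463 in K14-TCL1, and 362 and 357 in WT. The Tcl1-/- difference from WT was -0.25 ± 0.04 (adjusted p = 0.00194), the K14-TCL1 difference was 0.40 ± 0.04 (adjusted p = 0.000222), and Tcl1-/- against K14-TCL1 gave -0.65 ± 0.03 (adjusted p = 7.73e-06).

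Klk8 (neuropsin) passed only between Tcl1-/- and K14-TCL1. Its intensities were 3858, 3942 and 3788 in Tcl1-/-, 4336, 4137 and 4316 in K14-TCL1, and 4112 and 4178 in WT. Tcl1-/- was lower than K14-TCL1 by -0.14 ± 0.03 (adjusted p = 0.0182), a call that ended when Tcl1-/- replicate 1 or 3 or K14-TCL1 replicate 1 or 3 was left out (adjusted p up to 0.0634). Its differences from WT, -0.10 in Tcl1-/- and 0.04 in K14-TCL1, did not pass. Klk1b21, at 69.2 to 74.1 in Tcl1-/-, 71.5 to 82.2 in K14-TCL1 and 64.8 to 70.1 in WT, did not pass in any comparison, and the mouse Klk1b genes are close enough in sequence that their probe sets may share signal. The Klk1b22 and Klk1b9 probe set, which names both genes, had differences between -0.04 and -0.01 in the 3 comparisons and was not called.

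Among 4 genes of membrane-bound and plasminogen-activating proteases and the urokinase receptor, 1 rose in Tcl1-/- against WT and none passed in K14-TCL1 against WT. In Tcl1-/- this is 25% of the class, near the 26.6% called over all genes, and in K14-TCL1 21.5% of all genes were called. Prss8 (prostasin), a membrane-anchored protease needed for the skin barrier in mice, read 585, 582 and 573 in Tcl1-/-, 495, 472 and 492 in K14-TCL1, and 499 and 487 in WT. The Tcl1-/- arrays stood above all the others, by 0.24 ± 0.04 against WT (adjusted p = 0.00257) and 0.25 ± 0.03 against K14-TCL1 (adjusted p = 0.00127), whereas K14-TCL1 differed from WT by -0.02 (95% interval -0.10 to 0.07). St14 (matriptase), its partner in a protease cascade, read 662, 659 and 656 in Tcl1-/-, 611, 609 and 600.4 in K14-TCL1, and 630.0 and 638 in WT. It was higher in Tcl1-/- than in K14-TCL1 by 0.12 ± 0.03 (adjusted p = 0.0195), a call lost without any 1 of the Tcl1-/- arrays or without K14-TCL1 replicate 3 (adjusted p up to 0.0649), and neither genotype passed against WT.

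The tissue plasminogen activator gene Plat and the urokinase receptor gene Plaur were called in no comparison. Plat ranged over 45.5 to 57.5 in Tcl1-/-, 41.4 to 47.5 in K14-TCL1 and 40.8 to 43.2 in WT. Plaur ranged over 37.3 to 43.2 in Tcl1-/-, 42.4 to 46.1 in K14-TCL1 and 35.2 to 39.0 in WT. Spint1, which encodes an inhibitor of matriptase, was not called either, at 602 to 626 in Tcl1-/-, 608 to 631 in K14-TCL1 and 585 to 602 in WT.

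Cathepsins split into a group that rose and a smaller one that fell. Of 12 tested, 5 rose and 3 fell in Tcl1-/- against WT, and 5 rose and 1 fell in K14-TCL1 against WT. Shares called over all genes were 26.6% and 21.5%. Median differences of the cathepsins were 0.07 in Tcl1-/- and 0.05 in K14-TCL1, against 0.01 over all genes in both. Ctse, an aspartic protease of the endosomal compartment, read 51.3, 59.2 and 53.2 in Tcl1-/-, 49.8, 45.4 and 46.1 in K14-TCL1, and 33.9 and 32.5 in WT. All 6 arrays of both genotypes lay above both WT arrays, and the 3 genotypes did not overlap. The rise was 0.72 ± 0.07 in Tcl1-/- (adjusted p = 0.000148) and 0.50 ± 0.07 in K14-TCL1 (adjusted p = 0.00147), and the difference between Tcl1-/- and K14-TCL1, 0.21 ± 0.06 (adjusted p = 0.034), was lost without Tcl1-/- replicate 2 or 3 or K14-TCL1 replicate 2 or 3 (adjusted p up to 0.0923). These signals lie just above the filter, where background compresses folds.

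Ctss, which processes the invariant chain in antigen-presenting cells, read 542, 505 and 535 in Tcl1-/-, 462, 484 and 482 in K14-TCL1, and 409.8 and 416 in WT. Tcl1-/- had the highest arrays and WT the lowest, with no overlap. It rose by 0.35 ± 0.04 in Tcl1-/- (adjusted p = 0.000707) and by 0.20 ± 0.04 in K14-TCL1 (adjusted p = 0.0128), the K14-TCL1 call being lost without either WT array (adjusted p up to 0.0886). Tcl1-/- lay above K14-TCL1 by 0.15 ± 0.04 (adjusted p = 0.0252), which was lost without Tcl1-/- replicate 1 or 3 or K14-TCL1 replicate 1 (adjusted p up to 0.0881). Ctsh, a lysosomal aminopeptidase, read 1887, 1854 and 1858 in Tcl1-/-, 1782, 1766 and 1704 in K14-TCL1, and 1611 and 1563 in WT. Its arrays stood in the same order as those of Ctss. The difference between Tcl1-/- and K14-TCL1, however, did not pass for Ctsh (0.09 ± 0.03, adjusted p = 0.0747). The differences from WT were 0.23 ± 0.04 in Tcl1-/- (adjusted p = 0.00258) and 0.14 ± 0.04 in K14-TCL1 (adjusted p = 0.0292), and the K14-TCL1 call ended without K14-TCL1 replicate 1 or either WT array (adjusted p up to 0.168).

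Ctsw, a cathepsin known from cytotoxic lymphocytes, took another order. It read 168, 168 and 158 in Tcl1-/-, 202, 189 and 191 in K14-TCL1, and 141 and 133 in WT, so the K14-TCL1 arrays were the highest. It rose by 0.26 ± 0.05 in Tcl1-/- (adjusted p = 0.00501) and by 0.50 ± 0.05 in K14-TCL1 (adjusted p = 0.000267), and Tcl1-/- lay below K14-TCL1 (-0.24 ± 0.04, adjusted p = 0.00574). Ctsk, a collagen-degrading cathepsin, rose in Tcl1-/- by 0.22 ± 0.06 (adjusted p = 0.0266), with 38.1 to 41.7 in Tcl1-/-, 37.4 to 37.6 in K14-TCL1 and 32.3 to 36.6 in WT. That call was lost without Tcl1-/- replicate 1 or 3 or WT replicate 1 (adjusted p up to 0.198). Ctsf rose in K14-TCL1 by 0.33 ± 0.08 (adjusted p = 0.0179), with 194 to 227 in K14-TCL1 and 163 to 174 in WT, and lost the call without either WT array (adjusted p up to 0.123).

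The cathepsin genes that fell were Ctsz, Ctsc and Ctsb. Ctsz, a carboxypeptidase, ranged over 173 to 191 in Tcl1-/-, 149 to 173 in K14-TCL1 and 216 to 220.4 in WT. It fell by -0.25 ± 0.07 in Tcl1-/- (adjusted p = 0.0288) and by -0.42 ± 0.07 in K14-TCL1 (adjusted p = 0.00458), and its 3 probe sets all lay below WT in both genotypes. The Tcl1-/- call ended without Tcl1-/- replicate 2 or 3 or either WT array (adjusted p up to 0.142). Ctsc, the dipeptidyl peptidase that activates granule serine proteases, ranged over 868 to 924 in Tcl1-/-, 975 to 1046 in K14-TCL1 and 1067 to 1134 in WT. It fell by -0.29 ± 0.05 in Tcl1-/- against WT (adjusted p = 0.00331), and by -0.16 ± 0.04 against K14-TCL1 (adjusted p = 0.0298), the second call being lost without replicate 1 or 2 of either genotype (adjusted p up to 0.100). Ctsb, a major lysosomal cysteine protease, fell by -0.13 ± 0.03 in Tcl1-/- (adjusted p = 0.0286), and the call was lost without any 1 Tcl1-/- array or WT array (adjusted p up to 0.176). Of its 4 probe sets, this was the only one called against WT. Ctsa, Ctsd and Ctsl were called in no comparison, with differences between -0.11 and 0.10.

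Many, but not all, tested markers of resident immune cells rose as well. Among all genes, 14.4% were called higher in Tcl1-/- and 11.7% in K14-TCL1 against WT. The 6 Langerhans cell markers (Cd207, Cd74, H2-Aa, H2-Ab1, Itgax and Cd52) gave 5 rises in Tcl1-/- and 4 in K14-TCL1 against WT with no falls, and their summed intensity was 8341 to 8760 in Tcl1-/-, 6993 to 7022 in K14-TCL1, and 6068 to 6240 in WT. Cd74, H2-Aa and H2-Ab1 made up most of this sum, whose order was that of the Ctss and Ctsh arrays. Cd207, however, was at its WT level in K14-TCL1 (0.002, adjusted p = 0.979), and Itgax passed in no comparison. The order was not particular to these markers. The 7 macrophage markers, mostly Csf1r, summed to 1403 to 1455 in Tcl1-/-, 1221 to 1262 in K14-TCL1 and 1048 to 1091 in WT. The sebocyte markers Scd1, Scd3, Mgst1 and Elovl3 also had this order, at 7461 to 7530, 6163 to 6529 and 5910 to 5932. Of 5 epidermal T cell markers in the table, 4 rose in each comparison with WT, while Cd2 lay slightly below WT in both (-0.11 and -0.07) and did not pass. The 5 markers summed to 914 to 933 in Tcl1-/-, 1013 to 1023 in K14-TCL1 and 779 to 798 in WT, with K14-TCL1 the highest, as for Ctsw. Of 7 macrophage markers, 4 were tested, of which 3 rose in Tcl1-/- and 2 in K14-TCL1, while Cd163, Mrc1 and C1qb were under the filter. Set against K14-TCL1, 2 of them were higher in Tcl1-/- and 1, C1qa, was lower (-0.36, adjusted p = 0.0044). That comparison called 13.9% of all genes as higher and 12.7% as lower. In whole epidermis, more cells of a type and more RNA per cell cannot be told apart, and the part these cells play in the cathepsin values was not tested.

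**Figure D3:**
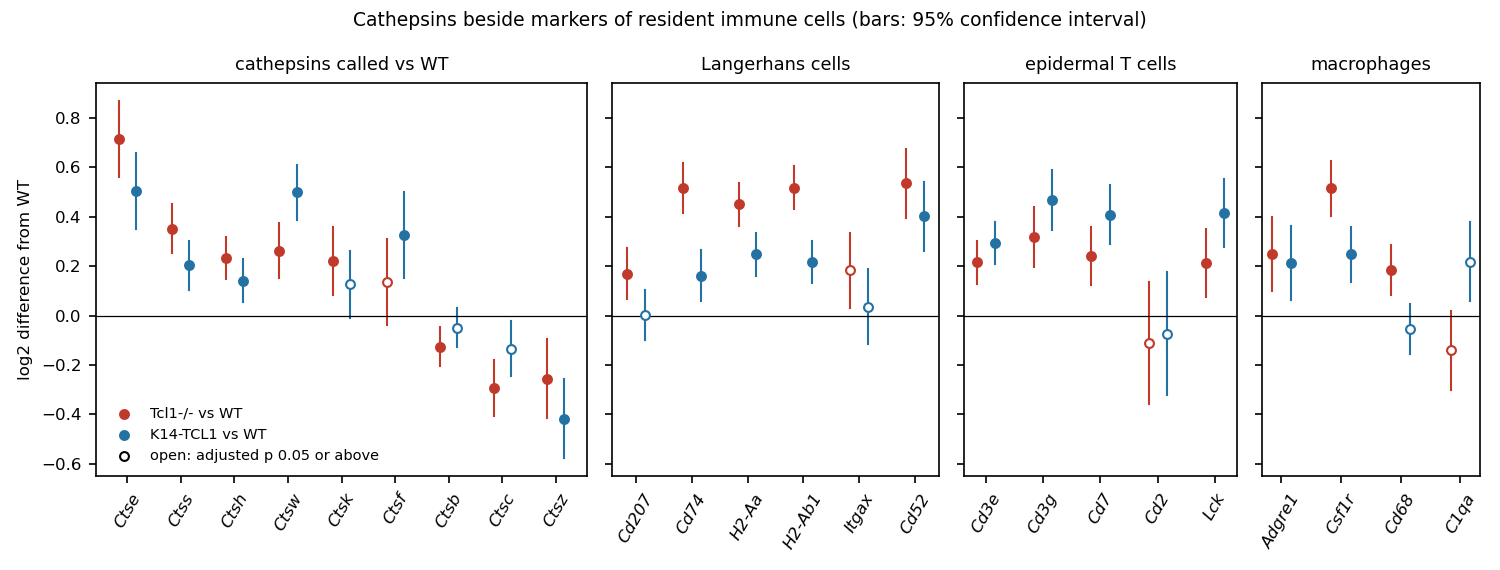
Log2 difference from WT, with 95% confidence intervals, of the cathepsin genes called against WT and of tested markers of Langerhans cells, epidermal T cells and macrophages, in Tcl1-/- (red) and K14-TCL1 (blue), filled where the adjusted p is under 0.05. Ctse, Ctss and Ctsh have the higher point in Tcl1-/-, like the 6 Langerhans cell markers and the macrophage markers Adgre1, Csf1r and Cd68. Ctsw has it in K14-TCL1, like the 5 T cell markers and the macrophage marker C1qa. For Ctsh the difference between Tcl1-/- and K14-TCL1 did not pass.

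Clade B serpins held the largest differences between Tcl1-/- and K14-TCL1. Of 10 tested, 1 rose and 5 fell in Tcl1-/- against WT, 2 rose and 2 fell in K14-TCL1 against WT, and in Tcl1-/- set against K14-TCL1 2 were higher and 4 lower. Of all genes, these 3 comparisons called 26.6%, 21.5% and 26.6%. The median difference of the serpins from WT was -0.25 in Tcl1-/- and 0.01 in K14-TCL1, against 0.01 over all genes in both. Their genes lie in 2 clusters, 1 from Serpinb5 to Serpinb8 and 1 from Serpinb1a to Serpinb6a in the RefSeq gene order (GRCm38.p6). Serpinb1a, an inhibitor of the neutrophil proteases elastase, cathepsin G and proteinase 3, read 82.2, 82.6 and 82.5 in Tcl1-/-, 178, 183 and 180.3 in K14-TCL1, and 137 and 136 in WT. Tcl1-/- lay well below and K14-TCL1 above WT. The differences from WT were -0.73 ± 0.03 in Tcl1-/- (adjusted p = 2.79e-06) and 0.40 ± 0.03 in K14-TCL1 (adjusted p = 0.000124), and Tcl1-/- was 0.457 times K14-TCL1 (-1.13 ± 0.03, adjusted p = 8.88e-08).

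Serpinb6c, a mouse relative of Serpinb6a, was more variable. It read 54.9, 57.6 and 79.8 in Tcl1-/-, 193, 186 and 189 in K14-TCL1, and 112 and 118 in WT. Tcl1-/- replicate 3 was higher than the other two but still below both WT arrays. The differences from WT were -0.86 ± 0.14 in Tcl1-/- (adjusted p = 0.00247) and 0.72 ± 0.14 in K14-TCL1 (adjusted p = 0.00781), and Tcl1-/- was 0.334 times K14-TCL1 (-1.58 ± 0.12, adjusted p = 8.02e-05). The K14-TCL1 call against WT was lost without WT replicate 1 (adjusted p = 0.0603). Its probe set is of a type that can match several related transcripts, so the signal may not come from Serpinb6c alone.

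Serpinb6a, which inhibits cathepsin G and other trypsin-like or chymotrypsin-like proteases, read 1357, 1353 and 1405 in Tcl1-/-, 1834, 1809.6 and 1814 in K14-TCL1, and 1916 and 1960.0 in WT. It fell in Tcl1-/- by -0.50 ± 0.04 against WT (adjusted p = 3.5e-05) and by -0.41 ± 0.03 against K14-TCL1 (adjusted p = 9.03e-05). The K14-TCL1 difference from WT was -0.09 with a 95% interval of -0.17 to -0.01 (adjusted p = 0.108). In the same cluster, Serpinb9, an inhibitor of granzyme B, and Serpinb9b passed in no comparison, with differences from WT of 0.39 and -0.09 in Tcl1-/- and 0.20 and -0.19 in K14-TCL1. Of 8 neutrophil markers in the table, 7, Elane and Mpo among them, were under the filter at 3.61 to 4.64 on the log2 scale, as was Ctsg at 4.49. The remaining marker, Cxcr2, was tested and fell in Tcl1-/- (-0.32, adjusted p = 0.0268) and in K14-TCL1 (-0.39, adjusted p = 0.0139) against WT. Added up, the 8 markers gave 345 to 351 for WT arrays, 311 to 321 for Tcl1-/- arrays and 282 to 321 for K14-TCL1 arrays. Cxcr2 was the largest part of this sum, averaging 216 for WT, 174 for Tcl1-/- and 165 for K14-TCL1. The higher WT sum thus rests on Cxcr2 and gives no direction for the 7 markers under the filter. The part of neutrophils in the serpin values was not tested.

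The other cluster mixed directions among neighbours. Serpinb11 read 106, 92.7 and 96.3 in Tcl1-/-, 174, 187 and 183 in K14-TCL1, and 159.5 and 159 in WT. It fell in Tcl1-/- by -0.70 ± 0.06 against WT (adjusted p = 9.92e-05) and by -0.89 ± 0.05 against K14-TCL1 (adjusted p = 2.54e-05). In K14-TCL1 all 3 arrays were above WT, but the difference of 0.19 ± 0.06 did not pass (adjusted p = 0.0606). Serpinb7, whose human counterpart is mutated in Nagashima-type palmoplantar keratosis, read 3304, 3345 and 3346 in Tcl1-/-, 2751, 2729 and 2833 in K14-TCL1, and 3171 and 3166 in WT. Here K14-TCL1 was the genotype that stood apart, below WT by -0.19 ± 0.03 (adjusted p = 0.0061), with Tcl1-/- above K14-TCL1 by 0.27 ± 0.03 (adjusted p = 0.00073).

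Serpinb2, plasminogen activator inhibitor type 2, ranged over 1298 to 1531 in Tcl1-/-, 1524 to 1630.1 in K14-TCL1 and 1810.4 to 1931 in WT. It fell by -0.40 ± 0.07 in Tcl1-/- (adjusted p = 0.00383) and by -0.26 ± 0.07 in K14-TCL1 (adjusted p = 0.032), the K14-TCL1 call being lost without K14-TCL1 replicate 1 or 3 or either WT array (adjusted p up to 0.180). Serpinb8, known in humans as an inhibitor of furin, read 1476, 1457 and 1475 in Tcl1-/-, 1229, 1308 and 1179 in K14-TCL1, and 1182 and 1151 in WT. It rose in Tcl1-/- by 0.33 ± 0.05 against WT (adjusted p = 0.00143) and by 0.25 ± 0.04 against K14-TCL1 (adjusted p = 0.0042), and K14-TCL1 overlapped WT.

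Serpinb5 (maspin) was called in no comparison by the probe set with the highest signal, but its 3 probe sets disagreed. In a fit of every named probe set, which called 23% of 15761 probe sets for Tcl1-/- and 18.2% for K14-TCL1 against WT and 23.3% between Tcl1-/- and K14-TCL1, another Serpinb5 probe set was higher in Tcl1-/- than in K14-TCL1 (0.14 ± 0.04, adjusted p = 0.0396) and the remaining one was lower (-0.22 ± 0.04, adjusted p = 0.00933) and also fell against WT (-0.31 ± 0.05, adjusted p = 0.00295). No direction is therefore given for this gene. In the same fit, 2 probe sets that name both Serpinb3b and Serpinb3c, mouse relatives of the human squamous cell carcinoma antigens, rose in Tcl1-/- against WT, each by 0.32 (adjusted p = 0.00643 and 0.0106). They read 338 to 349.5 and 417 to 468 in Tcl1-/-, 314 to 355 and 383 to 435 in K14-TCL1, and 264 to 284 and 354 to 356 in WT, and 1 of the 2 was called higher in K14-TCL1 as well (0.27 ± 0.06, adjusted p = 0.0167).

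**Figure D4:**
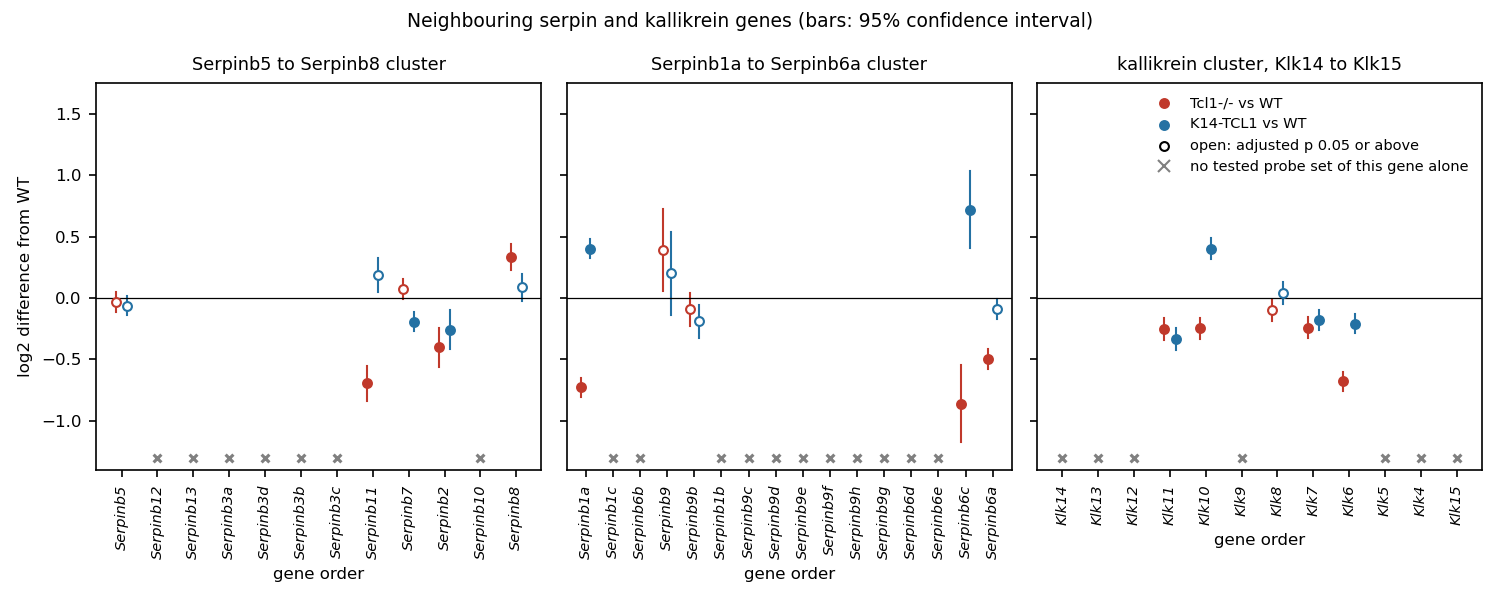
Log2 difference from WT, with 95% confidence intervals, along the gene order of both serpin clusters and of the first 12 genes of the kallikrein cluster, in Tcl1-/- (red) and K14-TCL1 (blue), filled where the adjusted p is under 0.05, with crosses for genes that have no tested probe set of their own. Serpinb11 and Serpinb8 lie close to each other in their cluster and moved in opposite directions in Tcl1-/-, at -0.70 and 0.33.

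The study measured the AP-1 subunits cFOS and cJUN, and the usual AP-1 motif is TGACTCA or TGAGTCA. The search used a looser form, TGANTCA, which allows any middle letter. This looser motif was searched in the 250 bases before the start of each gene, in the RefSeq windows of GRCm38.p6. A match on one strand is also a match on the other. It was found in 2217 of 32851 windows (6.75%), and in 461 of the 7646 tested genes that have a window (6.03%). Of the 39 tested proteases and inhibitors 28 had a window, and 6 of these held the motif. They were Plaur and 5 of 9 clade B serpins (Serpinb5, Serpinb11, Serpinb7, Serpinb2 and Serpinb8), all 5 in 1 cluster. Plaur held TGACTCA, and Serpinb7 and Serpinb8 held TGAGTCA. Serpinb5, Serpinb11 and Serpinb2 matched only the looser form, with A or T in the middle. The shares were counted for the looser form alone. None of the 6 kallikreins and none of the 8 cathepsins with a window held it, nor did Stfa3, Slpi, Serpinb6a or Serpinb6c. Serpinb1a, Ctse, Ctsw, Prss8 and Cst6 were among the tested genes without a window. A match is a run of letters and not a measured binding site.

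The windows of the 4 neighbours Serpinb11, Serpinb7, Serpinb2 and Serpinb8 are shown because they share the looser motif TGANTCA while their differences from WT in Tcl1-/- run from -0.70 to 0.33. They are written from the base furthest from the start, on the + strand, with the motif in capitals.
Serpinb11 (GRCm38.p6 chr1:107362064-107362313, + strand): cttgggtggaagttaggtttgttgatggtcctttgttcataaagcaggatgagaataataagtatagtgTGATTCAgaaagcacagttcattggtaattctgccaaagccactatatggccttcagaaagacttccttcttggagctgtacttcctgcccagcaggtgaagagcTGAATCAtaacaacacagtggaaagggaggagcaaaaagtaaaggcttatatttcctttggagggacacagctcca
Serpinb7 (GRCm38.p6 chr1:107422439-107422688, + strand): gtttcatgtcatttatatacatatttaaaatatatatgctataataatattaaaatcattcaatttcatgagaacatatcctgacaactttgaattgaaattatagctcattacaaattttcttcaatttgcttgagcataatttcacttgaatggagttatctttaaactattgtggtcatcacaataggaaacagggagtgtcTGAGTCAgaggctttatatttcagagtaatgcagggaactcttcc
Serpinb2 (GRCm38.p6 chr1:107511173-107511422, + strand): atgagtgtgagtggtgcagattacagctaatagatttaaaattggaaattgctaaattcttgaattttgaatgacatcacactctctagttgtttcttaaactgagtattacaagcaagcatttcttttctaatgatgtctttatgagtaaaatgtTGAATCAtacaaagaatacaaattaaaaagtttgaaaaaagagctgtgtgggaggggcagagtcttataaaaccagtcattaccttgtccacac
Serpinb8 (GRCm38.p6 chr1:107589756-107590005, + strand): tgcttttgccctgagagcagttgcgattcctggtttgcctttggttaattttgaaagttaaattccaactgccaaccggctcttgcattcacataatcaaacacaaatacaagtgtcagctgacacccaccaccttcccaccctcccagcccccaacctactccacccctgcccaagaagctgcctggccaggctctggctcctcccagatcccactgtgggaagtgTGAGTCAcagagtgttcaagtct
Serpinb11 held 2 matches, which begin 181 and 76 bases before the start. The match of Serpinb7 begins 45 bases, that of Serpinb2 94 bases and that of Serpinb8 23 bases before it, and Serpinb7 and Serpinb8 share the letters TGAGTCA. Serpinb2 has a further annotated start, for which the same match begins 181 bases before. Of the 4 genes, Serpinb11 and Serpinb2 fell, Serpinb8 rose and Serpinb7 did not pass in Tcl1-/- against WT.

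Stefins and cystatins held the single largest fall and otherwise small changes. Stfa3, of the stefin A genes that inhibit cysteine cathepsins inside the cell, read 2395, 2380.0 and 2364 in Tcl1-/-, 4869, 4932 and 5113 in K14-TCL1, and 5990.1 and 6013 in WT. The 3 genotypes did not overlap, and K14-TCL1 lay nearer to WT. The difference from WT was -1.33 ± 0.04 in Tcl1-/- (adjusted p = 1.22e-07) and -0.27 ± 0.04 in K14-TCL1 (adjusted p = 0.00147), and Tcl1-/- was 0.479 times K14-TCL1 (-1.06 ± 0.03, adjusted p = 1.98e-07). Stfa3 was the only stefin A gene found, and mouse stefin A genes are close copies of each other, so its probe set may also read others.

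Cst6, the cystatin that inhibits legumain and cathepsin L in the skin, went the other way. It read 8393, 8527 and 8145 in Tcl1-/-, 8231, 7539 and 8208 in K14-TCL1, and 7154 and 7074 in WT. It rose by 0.23 ± 0.05 in Tcl1-/- (adjusted p = 0.0087), which was lost without WT replicate 2 (adjusted p = 0.0577). The K14-TCL1 rise of 0.17 ± 0.05 (adjusted p = 0.0401) held without K14-TCL1 replicate 2 and was lost without any other single array (adjusted p up to 0.168).

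Cst3, the secreted cystatin C, read 6886, 6962 and 7053 in Tcl1-/-, 6879.6, 6770.1 and 6836 in K14-TCL1, and 6348 and 6370.2 in WT. It rose in Tcl1-/- by 0.13 ± 0.03 (adjusted p = 0.0207), a call lost without Tcl1-/- replicate 2 or 3 or either WT array (adjusted p up to 0.108), and in K14-TCL1 the difference of 0.10 did not pass (adjusted p = 0.0608). Cstb, the stefin B gene, passed in no comparison, with differences from -0.07 to 0.05, and its 2 probe sets gave the same picture.

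Slpi, a secreted inhibitor of neutrophil elastase and cathepsin G, read 117, 139 and 139 in Tcl1-/-, 175, 173 and 179 in K14-TCL1, and 209.9 and 206 in WT. The genotypes did not overlap, and their order was that of Stfa3 and Klk6. Slpi fell by -0.66 ± 0.07 in Tcl1-/- (adjusted p = 0.000359) and was lower there than in K14-TCL1 (-0.42 ± 0.07, adjusted p = 0.00266). The K14-TCL1 fall of -0.24 ± 0.07 (adjusted p = 0.0468) was held without Tcl1-/- replicate 1 or 2 and lost without any other single array (adjusted p up to 0.191). Spink4, the Kazal inhibitor gene that was tested, read 50.6 to 52.8 in Tcl1-/-, 45.1 to 60.6 in K14-TCL1 and 48.0 to 56.9 in WT, and was not called.

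Stability to single arrays differed between the comparisons. With each of the 8 arrays left out in turn, 18 of 23 calls held every time in Tcl1-/- vs WT, 9 of 17 in K14-TCL1 vs WT and 12 of 17 in Tcl1-/- vs K14-TCL1. Those that held throughout include Stfa3, Serpinb1a, Klk6 and Klk10 in all 3 comparisons. Arrays of Tcl1-/- and WT mice did not overlap for 32 of the 39 genes, where 57.7% of all genes did not overlap. K14-TCL1 and WT arrays did not overlap for 32 (50.6% of all genes), and Tcl1-/- and K14-TCL1 arrays for 25 (42.7%).

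Other proteases and inhibitors of the skin, which the symbol rule leaves out, were read from lists. Of 16 other proteases tested, 2 rose and 7 fell in Tcl1-/- against WT, and 1 rose and 3 fell in K14-TCL1 against WT. Over all genes, these comparisons called 26.6% and 21.5%. The median difference of the 16 from WT was -0.04 in Tcl1-/- and -0.01 in K14-TCL1, against 0.01 over all genes in both. Prss12, a secreted serine protease, fell in Tcl1-/- (-0.61, adjusted p = 0.000442), as did Capn2, a calpain (-0.59, adjusted p = 0.000113). Neither passed in K14-TCL1 against WT, and both were lower in Tcl1-/- than in K14-TCL1, Prss12 by -0.73 (adjusted p = 0.000148) and Capn2 by -0.51 (adjusted p = 0.000237). Capn1, another calpain, rose in Tcl1-/- against WT (0.20, adjusted p = 0.0124) and against K14-TCL1 (0.30, adjusted p = 0.00129). Prss22 fell in both genotypes, by -0.41 in Tcl1-/- (adjusted p = 0.000903) and -0.39 in K14-TCL1 (adjusted p = 0.00178).

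Of 16 other inhibitors tested, 3 rose and 2 fell in Tcl1-/- against WT, and 6 rose and none fell in K14-TCL1 against WT. The shares called over all genes were again 26.6% and 21.5%. The median difference of these inhibitors from WT was 0.03 in Tcl1-/- and 0.13 in K14-TCL1, against 0.01 over all genes in both. Wfdc12, a whey acidic protein domain gene, averaged 140 in Tcl1-/- and 683 in K14-TCL1, against 204 in WT, differing from WT by -0.54 (adjusted p = 0.000213) and 1.74 (adjusted p = 6.39e-07). It had the direction of Serpinb1a, Serpinb6c and Klk10, below WT in Tcl1-/- and above it in K14-TCL1. Serpina3g rose in both, by 1.04 in Tcl1-/- (adjusted p = 6e-06) and 0.86 in K14-TCL1 (adjusted p = 2.58e-05), as did Serpina12, by 0.39 (adjusted p = 0.000123) and 0.37 (adjusted p = 0.000274). Both genotypes carry the Tcl1 deletion, and the part of DNA inherited with it in these rises was not tested.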

How the data were processed

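Epidermal RNA of 8 mice was hybridized to Affymetrix mouse arrays, and the deposited intensity values are RMA summaries on the linear scale (RMA version not given in the sources used here). A second deposited table holds the same values. RMA corrects background and equalizes the distribution across arrays, which compresses folds of weak signals. Intensities were taken to log2 with no pseudocount. Arrays give no read depth, and the 2 WT and 3 other arrays per genotype limit precision.

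Gene names came from the deposited table, with older ones updated from RefSeq gene names (GRCm38.p6), and probe sets without a name (492), with several names (578) or for controls (64) were left out of the gene fit. The probe set with the highest mean stood for a gene, and 9731 genes with a highest genotype mean of at least 5 were tested with limma 3.58.1 in R 4.3.3, 1 mean per genotype and a single prior variance. All 8 arrays entered 1 fit, and p-values were adjusted over the 9731 genes (Benjamini-Hochberg, threshold 0.05). The fit was first tested on simulated data. Promoter windows come from RefSeq, and matplotlib 3.10.9 (Python 3.11.15) drew the figures.

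Per-array values are given for genes called with a difference of at least 0.5, and for up to 3 further called genes per class by smallest p, while others are given by range. From each list outside the rule, up to 4 genes by smallest p were named. A gene that this rule would name is not reported here. The proteases, inhibitors and lists were chosen with earlier results of these data known. P-values rest on the spread between animals within a genotype, pooled over the 3 genotypes and drawn toward the prior variance. A litter or preparation that goes with a genotype is not part of that spread. Filters, probe set choices, scalings, variance models, the study's thresholds, a replicate block and each array left out were tried as alternatives.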

Additional observations from a re-analysis of the deposited data

How the results depend on the processing

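Over the 57 calls of single genes and 21 alternatives, 1054 repeats kept the call, 136 lost it, 7 could not be tested and none changed direction. The 7 were Ctse and Ctsk at a filter of 6, and Serpinb6c without probe sets that can match several transcripts. Under the study's criteria (unadjusted p under 0.001, 1.4-fold from the median on 20% of arrays) 1 of the 39 genes was higher and 4 were lower in Tcl1-/- vs WT. In K14-TCL1 vs WT 3 were higher and 1 lower, and in Tcl1-/- vs K14-TCL1 0 were higher and 4 lower. In the last comparison limma gave 10 higher at an unadjusted p under 0.05. Over the 3 genotypes 5 differed. The share of all genes under these criteria was not counted, so these numbers cannot be set against the rest of the array. Leaving out 1 array gave 3 to 6 genes higher in Tcl1-/- vs K14-TCL1, with 3 without Tcl1-/- replicate 3, and 4 to 10 higher in K14-TCL1 vs WT, with 4 and 5 without WT replicates 1 and 2. With the replicate number as a block, 3 genes were higher in Tcl1-/- vs K14-TCL1, and 14 calls were lost in all. Same-numbered arrays deviated with correlations of -0.061 to 0.057, and differently numbered ones with correlations of -0.057 to 0.056. With 2 or 3 arrays per genotype, these values cannot show whether same-numbered animals shared a litter or a preparation. The cause of these shifts was not tested. Probe signals near background limit what can be said of the 27 untested genes.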

Other observations

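Substrates and targets of epidermal proteases were read from a list as well. Of 15 tested, 3 rose and 4 fell in Tcl1-/- against WT, 3 rose and 7 fell in K14-TCL1 against WT, and in Tcl1-/- set against K14-TCL1 8 were higher and 2 lower. Over all genes, these comparisons called 26.6%, 21.5% and 26.6%. The median difference from WT was 0.06 in Tcl1-/- and -0.13 in K14-TCL1, against 0.01 over all genes in both. Cdsn (corneodesmosin), which kallikreins cut during shedding, averaged 7431 in Tcl1-/- and 5813 in K14-TCL1, against 6481 in WT, a log2 difference from WT of 0.20 in Tcl1-/- (adjusted p = 0.0083) and -0.16 in K14-TCL1 (adjusted p = 0.0268). Il33, a cytokine that proteases can cut, averaged 906 in Tcl1-/- and 1263 in K14-TCL1, against 983 in WT, with differences of -0.12 (adjusted p = 0.0348) and 0.36 (adjusted p = 0.000238). Epcam, a target of matriptase, rose in both, by 0.38 in Tcl1-/- (adjusted p = 0.000137) and 0.20 in K14-TCL1 (adjusted p = 0.006). Tgm3, a transglutaminase that is activated by cleavage, rose by 0.33 (adjusted p = 0.00999) and 0.64 (adjusted p = 0.000526).

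Sebocyte markers rose too. All 4 tested (Scd1, Scd3, Mgst1 and Elovl3) were higher in Tcl1-/- than in WT, and 2 (Scd3 and Mgst1) were higher in K14-TCL1 than in WT. Among all genes, 14.4% and 11.7% were called higher in these comparisons. The 4 sebocyte markers had a summed intensity of 7461 to 7530 in Tcl1-/-, 6163 to 6529 in K14-TCL1, and 5910 to 5932 in WT.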
